A study of Mus musculus with 5 samples.

Results

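The glycolysis and hypoxia module studied here is a list of 36 genes for glucose uptake, the steps from glucose to lactate, and the response of cells to low oxygen. Its members were chosen by name, as the listed genes present in the deposited count table, and all 36 were found among its 21617 genes. They were followed through the monocytes and macrophages, neutrophils and fibroblasts of foreign body granulomas in mice. Such granulomas grow around implanted material that cannot be cleared, and consist largely of macrophages, fibroblasts and collagen. RNA of single cells was read from its 3' end in droplets (10x Chromium v3), and each captured molecule carried a unique molecular identifier (UMI). There were 5 libraries and 1 library for each group, namely granulomas around silk at 4 weeks, silk at 2 weeks, sponge at 4 weeks and sponge at 2 weeks, and a control of macrophages elicited with thioglycollate, a sterile irritant. The sources used here give neither strain, age and sex nor the number of animals behind each library. The control differs from the granulomas in how its macrophages were obtained as well as in the absence of an implant, and these cannot be told apart.

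The libraries are called 4-week silk, 2-week silk, 4-week sponge, 2-week sponge and the control. They held 1873, 10231, 7701, 12347 and 9039 cells in that order, and 153 barcode sequences were found in 2 libraries. The authors' deposited cell classes were used, and monocytes and macrophages are written Mo-Mac. The Mo-Mac class held between 1045 cells (4-week silk) and 7783 cells (control), and its summed UMIs lay between 6340718 and 74345875. Neutrophils numbered 69, 814, 330 and 1044 in the granulomas and fibroblasts 211, 798, 1495 and 2127, while the control held 12 neutrophils and 1 fibroblast, which were not used. In 4-week silk neutrophils 1 UMI was worth 12.04 CPM. Macrophage markers summed to 20390 CPM or more in every Mo-Mac class, neutrophil markers to 81390 CPM or more in every neutrophil class and fibroblast markers to 71190 CPM or more in every fibroblast class, so that each class carried the markers of its name. Fibroblast markers summed to 6082, 10180, 6470 and 3238 CPM in granuloma Mo-Mac cells, against 2489 in the control, and neutrophil markers to 191, 227, 173 and 359 CPM, against 100. The part of RNA from other cells in the results was not tested.

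Glycolysis splits glucose into pyruvate and yields ATP without oxygen, and lactate dehydrogenase turns pyruvate into lactate, which leaves the cell through monocarboxylate transporters. When oxygen is plentiful, prolyl hydroxylases of the EGLN family mark the transcription factor subunit HIF-1 alpha for destruction. When oxygen is scarce the subunit persists, enters the nucleus and switches on genes for glucose uptake, glycolysis and the removal of mitochondria. Macrophages that sense microbial products stabilise the same factor and raise glycolysis in normal oxygen, and neutrophils live mainly from glycolysis. A change in these transcripts therefore has more than 1 known source in inflamed tissue, and neither oxygen nor metabolites were measured here.

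HIF-1 binds DNA at short motifs whose core is ACGTG or GCGTG, which reads CACGT or CACGC on the other strand. RefSeq promoter windows on build GRCm38.p6, from 250 bases before to 50 bases after the annotated start, were available for 33 of the 36 members. At least 1 of these motifs stood in 38 of the 46 windows of members (82.6%) and in 54.8% of the 18871 windows of all genes in the count table. At least 2 stood in 60.9% of member windows, against 28.1% of all windows. The 33 members included 30 with a match in some window, and Eno2, Gpi1 and Tpi1 had none. A match describes the letters of the window and is not evidence of binding. The windows below belong to members on which the results turn, with every motif match in capitals, read 5' to 3' along the gene's strand. They lie at chr11:120948817-120949116, plus strand (Slc16a3); chrX:106186850-106187149, plus strand (Pgk1); chr4:119108495-119108794, plus strand (Slc2a1); chr7:138909457-138909756, minus strand (Bnip3); chr14:45318523-45318822, minus strand (Ero1l, RefSeq symbol Ero1a); and chr8:45999801-46000100, minus strand (Ankrd37).
Slc16a3: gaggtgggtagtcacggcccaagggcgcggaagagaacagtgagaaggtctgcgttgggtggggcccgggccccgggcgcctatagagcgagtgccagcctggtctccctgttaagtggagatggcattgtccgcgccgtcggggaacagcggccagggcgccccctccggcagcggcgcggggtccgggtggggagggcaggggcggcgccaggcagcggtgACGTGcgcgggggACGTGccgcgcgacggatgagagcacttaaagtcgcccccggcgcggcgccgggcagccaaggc
Pgk1: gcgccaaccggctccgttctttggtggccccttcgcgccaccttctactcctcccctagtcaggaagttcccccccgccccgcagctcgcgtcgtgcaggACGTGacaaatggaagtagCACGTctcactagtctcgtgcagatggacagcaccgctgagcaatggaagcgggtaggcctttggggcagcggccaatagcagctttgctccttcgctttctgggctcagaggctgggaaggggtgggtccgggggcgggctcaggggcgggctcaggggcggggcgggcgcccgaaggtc
Slc2a1: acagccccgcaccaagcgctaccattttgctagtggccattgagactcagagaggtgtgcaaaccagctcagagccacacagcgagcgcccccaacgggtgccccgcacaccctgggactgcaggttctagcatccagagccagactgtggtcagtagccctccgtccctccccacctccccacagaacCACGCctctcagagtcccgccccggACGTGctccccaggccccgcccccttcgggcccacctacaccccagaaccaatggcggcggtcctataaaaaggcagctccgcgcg
Bnip3: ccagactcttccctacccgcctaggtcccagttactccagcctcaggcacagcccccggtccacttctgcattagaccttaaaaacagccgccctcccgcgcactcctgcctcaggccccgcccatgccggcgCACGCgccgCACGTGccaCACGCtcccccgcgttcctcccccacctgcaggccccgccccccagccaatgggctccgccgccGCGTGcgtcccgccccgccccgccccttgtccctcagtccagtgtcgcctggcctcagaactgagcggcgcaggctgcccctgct
Ero1l: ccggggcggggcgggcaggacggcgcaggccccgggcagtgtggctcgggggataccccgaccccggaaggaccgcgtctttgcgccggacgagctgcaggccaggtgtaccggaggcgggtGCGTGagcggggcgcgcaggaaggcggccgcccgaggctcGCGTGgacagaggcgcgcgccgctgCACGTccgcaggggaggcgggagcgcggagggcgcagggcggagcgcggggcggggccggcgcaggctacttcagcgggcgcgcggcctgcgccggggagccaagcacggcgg
Ankrd37: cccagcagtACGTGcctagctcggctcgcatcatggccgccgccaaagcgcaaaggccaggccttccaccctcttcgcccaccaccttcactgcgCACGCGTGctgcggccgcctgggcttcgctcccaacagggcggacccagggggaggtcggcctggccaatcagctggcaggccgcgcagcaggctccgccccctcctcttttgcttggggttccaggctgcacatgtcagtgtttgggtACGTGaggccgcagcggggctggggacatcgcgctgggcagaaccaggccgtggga
In the lactate exporter Slc16a3 the matches begin 27 and 14 bases before the start, in Pgk1 150 and 131 and in Slc2a1 61 and 36. The Bnip3 window holds 5 matches, the Ankrd37 window 4 and the Ero1l window 3.

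Mo-Mac cells of the granulomas were set against the elicited control to ask how these genes differ between macrophages around a foreign body and macrophages drawn out by an irritant. In all 4 granulomas 10 members rose, namely the glucose and lactate transporters Slc2a1 and Slc16a3, the glycolytic enzymes Hk2, Pfkp, Aldoa, Pgk1, Pgam1 and Pkm, and the mitochondrial genes Bnip3 and Higd1a. Gpi1, Tpi1, Gapdh, Eno1 and Ldha, which lie on the same path, were not called. None fell in all 4. A member was called where its level, in UMIs scaled to a class total of 1000000 (CPM), was at least 2-fold higher or lower in every contrast after 10 CPM had been added to both sides. Members entered with a mean of at least 25 CPM over the compared libraries and at least 50 UMIs, which 26 of 36 did. Of all genes that entered, 5.61% were called higher and 1.57% lower by the same rule. Folds below are plain CPM ratios with 95% intervals in parentheses that cover counting error only. With 1 library in each group there is no replicate, no test and no p-value, and the spread between animals or preparations is unknown. All 4 contrasts share the same control library, so their agreement is not independent.

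Slc2a1 encodes the main glucose transporter of activated macrophages (chr4:119108711-119137983). It stood at 79.96 CPM in 4-week silk, 108.5 in 2-week silk, 81.4 in 4-week sponge and 108 in 2-week sponge, against 12.9 in the control. These are ratios of 6.2-fold (5.56 to 6.91) in 4-week silk, 8.41-fold (7.85 to 9.03) in 2-week silk, 6.31-fold (5.83 to 6.84) in 4-week sponge and 8.39-fold (7.82 to 9.0) in 2-week sponge and were the largest plain CPM ratios of the 10 in each granuloma. With 10 CPM added, Pgk1 had the larger ratio in each, at 2.08 log2 in 4-week silk, against 1.97 for Slc2a1. All 4 granulomas lay far above the control, and the 2-week libraries above the 4-week libraries. Slc2a3, the other glucose transporter of the list, was low in Mo-Mac cells, at 3.15 CPM in 4-week silk, 1.62 in 2-week silk, 2.497 in 4-week sponge and 1.68 in 2-week sponge, against 1.17 in the control.

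Hexokinases trap glucose inside the cell, and the 3 isoforms did not move together. Hk2, the inducible form, rose to 86.3 CPM in 4-week silk, 108 in 2-week silk, 101 in 4-week sponge and 106 in 2-week sponge, against 35.99 in the control, ratios of 2.4-fold (2.18 to 2.63) in 4-week silk, 3.01-fold (2.87 to 3.16) in 2-week silk, 2.8-fold (2.64 to 2.97) in 4-week sponge and 2.94-fold (2.8 to 3.09) in 2-week sponge. Hk1 lay close to the control in each granuloma, at 35.5 CPM in 4-week silk, 36.3 in 2-week silk, 34.4 in 4-week sponge and 34.6 in 2-week sponge, against 30.4 in the control. Hk3, a form of myeloid cells, was not called, at 51.6 CPM in 4-week silk, 32.35 in 2-week silk, 40.6 in 4-week sponge and 77.9 in 2-week sponge, against 90.7 in the control. It was below the control in every granuloma, with a log2 ratio (10 CPM added) of -1.25 in 2-week silk and -0.20 in 2-week sponge. Hk1, Hk2 and Hk3 thus spanned a rise, little difference and lower values within the same cells.

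In the first steps of the pathway the phosphofructokinase isoform Pfkp rose to 176 CPM in 4-week silk, 147 in 2-week silk, 169 in 4-week sponge and 124 in 2-week sponge, against 47.8 in the control, a rise of 2.6- to 3.68-fold. Pfkl, the liver-type isoform of the same enzyme, stood at 44.2 CPM in 4-week silk, 52.03 in 2-week silk, 42.9 in 4-week sponge and 48.45 in 2-week sponge, against 40.7 in the control and was not called. Aldoa, the aldolase that splits the hexose into 2 trioses, rose by 2.45- to 3.56-fold, to 765 CPM in 4-week silk, 1012 in 2-week silk, 697 in 4-week sponge and 885.5 in 2-week sponge, against 284 in the control. Both called genes were above the control in all 4 libraries, and by more at 2 weeks than at 4 weeks for Aldoa. Gpi1, the isomerase before phosphofructokinase, was above the control by 0.67 to 0.87 log2 and Tpi1, which interconverts the trioses, by 0.80 to 1.40 log2, and neither was called in all 4. Pfkfb3, whose product activates phosphofructokinase, straddled the control, at 14.2 CPM in 4-week silk, 22.8 in 2-week silk, 24.6 in 4-week sponge and 46.5 in 2-week sponge, against 24.1 in the control. Its relative Pfkfb4 ranged from -0.18 to 0.36 log2.

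Among the enzymes from triose to pyruvate, Pgk1 gave one of the largest rises. The gene (chrX:106187100-106203699) encodes phosphoglycerate kinase, the first ATP-forming step. It stood at 550.3 CPM in 4-week silk, 812 in 2-week silk, 641 in 4-week sponge and 784 in 2-week sponge, against 122 in the control, ratios of 4.5-fold (4.33 to 4.68) in 4-week silk, 6.65-fold (6.5 to 6.8) in 2-week silk, 5.25-fold (5.11 to 5.39) in 4-week sponge and 6.42-fold (6.27 to 6.57) in 2-week sponge. Pkm, the pyruvate kinase that forms ATP and pyruvate, rose by 2.93- to 4.66-fold, to 746 CPM in 4-week silk, 1061 in 2-week silk, 806 in 4-week sponge and 1187 in 2-week sponge, against 254.5 in the control. Pgam1, the mutase between these steps, stood at 572 CPM in 4-week silk, 826 in 2-week silk, 689 in 4-week sponge and 624 in 2-week sponge, against 280.4 in the control, and its smallest ratio, 1.0 log2 in 4-week silk, lay at the threshold. Gapdh, often used as a reference transcript, was not called, yet stood at 1036 CPM in 4-week silk, 830.2 in 2-week silk, 822 in 4-week sponge and 1267 in 2-week sponge, against 566 in the control. Eno1, an enolase, was above the control by 0.23 to 0.81 log2. The rises were therefore unequal between neighbouring steps of 1 pathway.

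At the exit of the pathway, Slc16a3 encodes the low-affinity monocarboxylate transporter that exports lactate (chr11:120948480-120960868). It rose to 224 CPM in 4-week silk, 276 in 2-week silk, 221 in 4-week sponge and 255 in 2-week sponge, against 41.97 in the control, ratios of 5.33-fold (5.0 to 5.68) in 4-week silk, 6.57-fold (6.31 to 6.83) in 2-week silk, 5.27-fold (5.04 to 5.52) in 4-week sponge and 6.07-fold (5.83 to 6.32) in 2-week sponge. Ldha, the subunit that makes lactate, differed far less, at 554 CPM in 4-week silk, 705 in 2-week silk, 594 in 4-week sponge and 712 in 2-week sponge, against 437 in the control, or 0.33 to 0.69 log2. The transporter and the enzyme before it thus differed from the control by unequal amounts. Slc16a1, the second lactate transporter of the list, was too low for the filter but stood at 18.8 CPM in 4-week silk, 22.6 in 2-week silk, 21.6 in 4-week sponge and 23.04 in 2-week sponge, against 3.58 in the control, a ratio of 5.25- to 6.44-fold. Ldhb, the subunit that favours pyruvate, stood at 21.8 CPM in 4-week silk, 12.5 in 2-week silk, 9.22 in 4-week sponge and 6.945 in 2-week sponge, against 10.1 in the control. Pdk1 encodes a kinase that restrains the use of pyruvate in mitochondria. It stood at 22.2 CPM in 4-week silk, 28.25 in 2-week silk, 20.9 in 4-week sponge and 27.2 in 2-week sponge, against 17.1 in the control.

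Oxygen-sensing and HIF target genes were mixed. Hif1a itself (chr12:73901375-73947530) was above the control in all 4 granulomas, at 228 CPM in 4-week silk, 614 in 2-week silk, 328 in 4-week sponge and 462 in 2-week sponge, against 119 in the control. Its log2 ratio was 2.28 in 2-week silk and 0.89 in 4-week silk, so that it missed the call in the last of these. HIF-1 alpha is regulated mainly as protein, which was not measured. Egln1, the main oxygen-dependent hydroxylase, differed by 0.14 to 0.36 log2. Egln3, a hydroxylase that is itself a HIF target, stood at 3.785 CPM in 4-week silk, 8.48 in 2-week silk, 7.11 in 4-week sponge and 22.4 in 2-week sponge, against 3.08 in the control, below the filter.

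Bnip3, a mitophagy receptor induced by HIF-1 (chr7:138890836-138909519), rose to 47.6 CPM in 4-week silk, 66.3 in 2-week silk, 54.9 in 4-week sponge and 116 in 2-week sponge, against 16.1 in the control. The ratios were 2.96-fold (2.6 to 3.36) in 4-week silk, 4.12-fold (3.85 to 4.41) in 2-week silk, 3.41-fold (3.14 to 3.7) in 4-week sponge and 7.18-fold (6.74 to 7.66) in 2-week sponge, the widest spread among the called members. Higd1a, a small protein of the inner mitochondrial membrane, rose by 2.52- to 3.43-fold, to 109 CPM in 4-week silk, 117 in 2-week silk, 114 in 4-week sponge and 149 in 2-week sponge, against 43.4 in the control. The relative of Bnip3, Bnip3l, lay on the other side of the control, at 196 CPM in 4-week silk, 191 in 2-week silk, 171 in 4-week sponge and 147.5 in 2-week sponge, against 316 in the control. Its log2 ratio ran from -1.05 to -0.66 and passed 2-fold in 2-week sponge only. Bnip3l and Hk3 were the 2 members below the control in all 4 granulomas.

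Ero1l, which reoxidises the disulphide-forming enzyme of the endoplasmic reticulum, was above the control by 0.80 to 1.90 log2, at 59.9 CPM in 4-week silk, 96.5 in 2-week silk, 69.0 in 4-week sponge and 140.3 in 2-week sponge, against 30.2 in the control. Ndrg1, a stress-response gene of the N-myc downstream-regulated family, was above it by 0.75 to 2.30 log2, at 67.3 CPM in 4-week silk, 45.5 in 2-week silk, 75.6 in 4-week sponge and 152 in 2-week sponge, against 22.96 in the control. Both were highest in 2-week sponge, and neither was called because 1 or more libraries stayed under 2-fold. P4ha1, a subunit of the collagen prolyl hydroxylase, was above the control by 0.60 to 1.06 log2. Ankrd37, an ankyrin repeat gene, stood at 14.04 CPM in 4-week silk, 18.55 in 2-week silk, 16.3 in 4-week sponge and 22.1 in 2-week sponge, against 16.1 in the control and did not pass the filter. Ddit4, an inhibitor of growth signalling through mTOR, stood at 2.37 CPM in 4-week silk, 4.99 in 2-week silk, 6.002 in 4-week sponge and 6.87 in 2-week sponge, against 3.51 in the control, under the filter.

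Over all 36 members the median log2 ratio to the control was 0.73 in 4-week silk, 0.77 in 2-week silk, 0.60 in 4-week sponge and 0.85 in 2-week sponge, and over the 26 that entered 0.84, 1.10, 0.92 and 1.18. The same median over all genes that entered lay between -0.02 and 0.05. Taken one by one, the contrasts with 4-week silk, 2-week silk, 4-week sponge and 2-week sponge gave 11, 14, 12 and 15 members higher (7.15%, 7.93%, 8.0% and 8.69% of all genes) and 0, 1, 0 and 1 lower (3.88%, 4.42%, 4.21% and 4.42%). Of the 26, 22 were above the control in all 4 granulomas, a count that was not made over all genes. The count of members called higher was 9 without subcluster C4, described below, 9 without subcluster C10 (both lose Pgam1), and 10 without C6. It fell to 5 when 50 CPM were added in place of 10, which took out Hk2, Pfkp, Pgam1, Bnip3 and Higd1a.

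**Figure D1:**
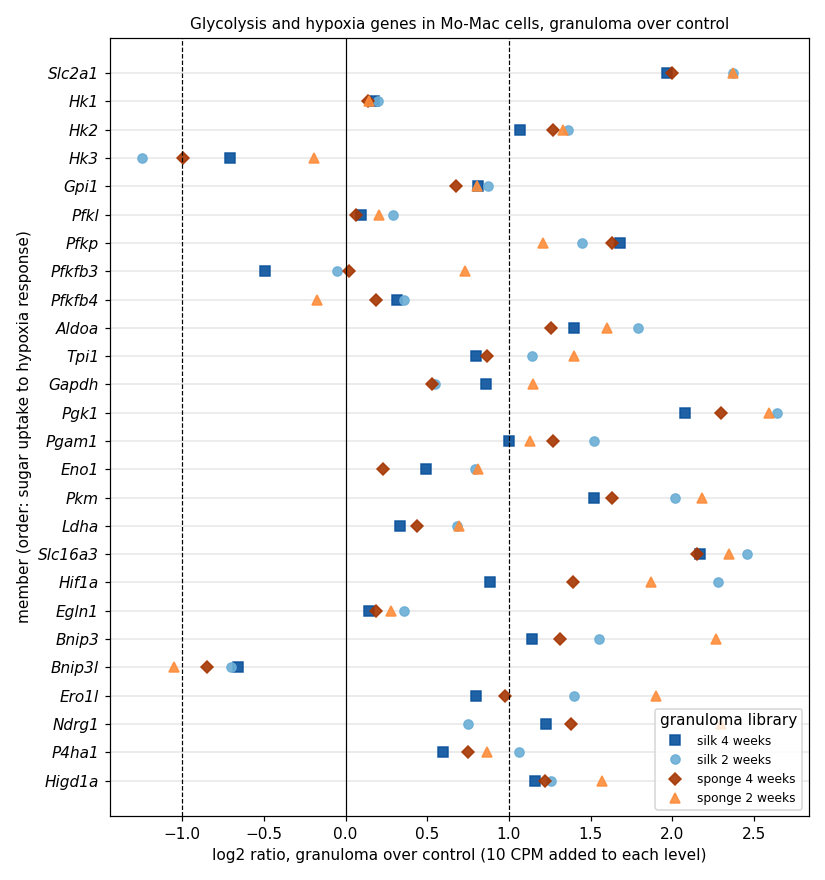
Log2 ratio of CPM (10 CPM added) in Mo-Mac cells of each granuloma library over the control library, for the 26 members that passed the filter, with dashed lines at 2-fold higher and lower. Points of Slc16a3, Pgk1 and Slc2a1 all lie beyond 2-fold on the higher side, whereas those of Bnip3l and Hk3 lie below 0 in all 4 granulomas.

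Other genes of these pathways gave a narrower picture. A list of 43 further genes of glycolysis, pyruvate handling and the pentose phosphate pathway had 16 that entered and none called in either direction, although 3 were called higher in all 3 remaining granulomas when 2-week sponge was left out. Of 44 other hypoxia response genes 20 entered, 4 rose and 1 fell. Vegfa, the vascular growth factor and HIF target, rose to 313 CPM in 4-week silk, 522.5 in 2-week silk, 406 in 4-week sponge and 283 in 2-week sponge, against 12.2 in the control. Mif and Hmox1 were also among those that rose, by at least 1.17 and 1.04 log2 in each granuloma. Trf, the iron carrier transferrin, fell to 180.1 CPM in 4-week silk, 115 in 2-week silk, 135 in 4-week sponge and 150.5 in 2-week sponge, against 1126 in the control. Of 45 nuclear genes of mitochondrial respiration 44 entered, none was called, and their median lay between 0.04 and 0.23 log2 over the control.

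Genes of dissociation stress and the immediate early response stood above the control in the same libraries. All 28 of that list entered, 12 rose in all 4 granulomas (Ier3 by at least 3.05 log2, Hspa1b by 2.70, Junb by 2.60 and Fosl2 by 2.39) and 1, Klf2, fell. Their median was 1.30 log2 in 4-week silk, 0.86 in 2-week silk, 1.31 in 4-week sponge and 1.35 in 2-week sponge. The part of tissue dissociation in the ratios of the members was not tested.

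No subcluster held 50 or more cells in both the granulomas and the control, so the ratios to the control always compare different subclusters. In the control 83.2% of Mo-Mac cells were in C1, 9.07% in C2 and 7.07% in C10. In the granulomas C7 and C6 were the most frequent in silk and in 4-week sponge, at 47.5%, 60.7% and 45.1% (C7) and 30.1%, 29.3% and 34.9% (C6), while 2-week sponge held 35.7% C4 cells, 20.7% C6 and 19.1% C5. The subclusters are the authors' and were made from these same cells, members included. Differences between them are therefore given as description. Their leading genes were Chil3, Ly6c2 and Plac8 in C3, Ly6i, Ly6c2 and Nos2 in C4, Ccl8, Mrc1 and Folr2 in C5, Ccl24, Thbs1 and Il1b in C6, and Mmp12, Cxcl3 and Spp1 in C7. C8 was led by cell cycle genes such as Top2a, C1 by Ltc4s and Cd5l, C2 by Gpnmb and C10 by Cd209a and H2-Eb1.

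C3 and C5 stood low. C3 had the highest sums of monocyte markers, at 6942 to 9590 CPM. Against the remaining Mo-Mac cells of its library, 6 members were at least 2-fold lower in C3 in all 4 granulomas, where 5.32% of all genes were, and no member was higher (background 4.17%). They were Aldoa (log2 -1.87 to -1.50), Tpi1 (-2.23 to -1.77), Pgk1 (-1.72 to -1.16), Pgam1 (-2.08 to -1.67), Ldha (-1.64 to -1.03) and Bnip3 (-2.26 to -1.72). In C3 Pgk1 stood at 252 CPM in 4-week silk, 246 in 2-week silk, 255 in 4-week sponge and 306 in 2-week sponge, and Bnip3 at 3.904 CPM in 4-week silk, 13.75 in 2-week silk, 6.09 in 4-week sponge and 17.3 in 2-week sponge. C3 was not low in the whole module. Its Slc16a3 level was 433 CPM in 4-week silk, 373 in 2-week silk, 437 in 4-week sponge and 288 in 2-week sponge, and its Hif1a level 217 CPM in 4-week silk, 419 in 2-week silk, 321 in 4-week sponge and 469.9 in 2-week sponge.

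In C5, led by the resident-type macrophage genes Mrc1 and Folr2, 9 members were at least 2-fold lower than in the rest in the 3 libraries with enough C5 cells, where 1.84% of all genes were. They were Slc2a1, Aldoa, Tpi1, Gapdh, Pgk1, Pgam1, Eno1, Pkm and Slc16a3, which reach from glucose uptake to lactate export. C5 held 29.9 CPM in 2-week silk, 20.97 in 4-week sponge and 24.2 in 2-week sponge of Slc2a1, 248 CPM in 2-week silk, 212 in 4-week sponge and 323 in 2-week sponge of Pgk1 and 53.8 CPM in 2-week silk, 59.1 in 4-week sponge and 83.3 in 2-week sponge of Slc16a3. The log2 ratio ran from -2.67 to -1.21 for Eno1 and from -2.17 to -1.69 for Slc16a3. These C5 levels of Slc2a1 and Slc16a3 still lay above those of the main control subcluster C1, 10.35 and 43.5 CPM. With 50 CPM added the count in C5 was 5.

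C4 and C3 both carried the monocyte gene Ly6c2, and C4 also carried Nos2, the inducible nitric oxide synthase. This pair was chosen after its values were seen. In the 3 libraries with at least 50 cells of both, 8 of 26 members were at least 2-fold higher in C4 than in C3 (4.25% of all genes) and none was lower (2.35%). Bnip3 stood at 145 CPM in 2-week silk, 93.45 in 4-week sponge and 214 in 2-week sponge in C4, against 13.75, 6.09 and 17.3 in C3 of the same libraries, ratios of 10.6-fold (6.62 to 17.6), 15.3-fold (6.58 to 41.5) and 12.4-fold (8.94 to 17.6). Tpi1 stood at 704 CPM in 2-week silk, 477 in 4-week sponge and 725 in 2-week sponge in C4, against 83.75, 97.5 and 115 in C3 of the same libraries, ratios of 8.41-fold (6.94 to 10.3), 4.89-fold (3.8 to 6.31) and 6.29-fold (5.54 to 7.17). Bnip3 in C3 rests on few UMIs, and its ratios have wide intervals. The ratios of Pgk1 were 4.62-fold (4.1 to 5.23), 2.2-fold (1.81 to 2.66) and 3.65-fold (3.37 to 3.95), and Aldoa, Pgam1, Ldha, Hk2 and P4ha1 were the other members called. Slc16a3 was not called, at 356 CPM in 2-week silk, 342 in 4-week sponge and 388 in 2-week sponge in C4, against 373, 437 and 288 in C3 of the same libraries. Gpi1, Pfkp, Gapdh, Eno1 and Pkm were not called either. With 50 CPM added, or with each cell given equal weight, the count was 5.

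Of the other hypoxia response genes, 5 of 19 were at least 2-fold higher in C4 than in C3 in the same libraries. They included Mif (by at least 2.26 log2), Fam162a (1.95), Hilpda (1.87) and Bhlhe40 (1.38). Of the stress and immediate early genes Egr2 (1.99) and Egr1 (1.36) were higher too. In 2-week sponge, which held 2542 of the C4 cells, 8 of 27 members were at least 2-fold above the rest of the Mo-Mac cells (background 2.64%). Among them were Egln3 (by 1.86 log2, at 47.8 CPM), Ero1l (1.65, at 246) and Ndrg1 (at 243). Across all 3 libraries C4 had none called against the rest, where 1.11% of all genes were called higher and 0.557% lower.

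The common subclusters C6 and C7 had no member called between them over all 4 libraries (background 1.17% higher and 0.843% lower in C6). This pair was also chosen after the values were seen. Hif1a stood at 346 CPM in 4-week silk, 883 in 2-week silk, 571 in 4-week sponge and 693 in 2-week sponge in C6, against 212 in 4-week silk, 589 in 2-week silk, 289 in 4-week sponge and 306 in 2-week sponge in C7. Ndrg1 stood at 143 CPM in 4-week silk, 79.9 in 2-week silk, 132 in 4-week sponge and 194 in 2-week sponge in C6, against 57.15 in 4-week silk, 39.2 in 2-week silk, 60.3 in 4-week sponge and 85.9 in 2-week sponge in C7. Both were higher in C6 in each library. The immediate early genes Ier3, Fosl2 and Zfp36 were higher in C6 as well, by at least 1.30, 1.09 and 1.01 log2. C6 cells were shallow, with medians of 948, 1652, 1374 and 1720 UMIs per cell (4-week silk, 2-week silk, 4-week sponge, 2-week sponge). In C7 the medians were 7009, 6257, 4815 and 6793.5. The part of depth in these differences was not tested. Against the rest of the class, C6, C7 and C8 had no member called in all of their libraries, with backgrounds of 0.244% to 2.93% for members higher and 0.447% to 2.17% lower.

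Within the control, C10, led by Cd209a, Retnla and Mgl2, carried both macrophage markers (14440 CPM) and dendritic cell markers (7886 CPM). It stood apart in Ddit4. The gene reached 58.1 CPM in C10, against 0.444 in C1 and 0.664 in C2. A Ddit4 UMI was found in 134 of 550 C10 cells (median 6788 UMIs per cell), against 22 of 6476 C1 cells (median 7351.5) and 7 of 706 C2 cells, C10 being slightly shallower. Hif1a was also higher in C10, at 248 CPM, against 117.5 in C1, and Hk3 was lower, at 18.2 CPM. Of all genes 4.42% were called higher and 8.03% lower in C10 than in the rest. C2, led by the lysosomal gene Gpnmb, held Hk3 at 208 CPM, against 67.55 in C1, and the mitophagy receptor Bnip3l at 559 CPM, against 269. Both were called against the rest of the control (background 2.41% higher). These 3 control subclusters lay within a narrow range in Pgk1, at 142 CPM in C10, 133 in C2 and 116 in C1.

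**Figure D2:**
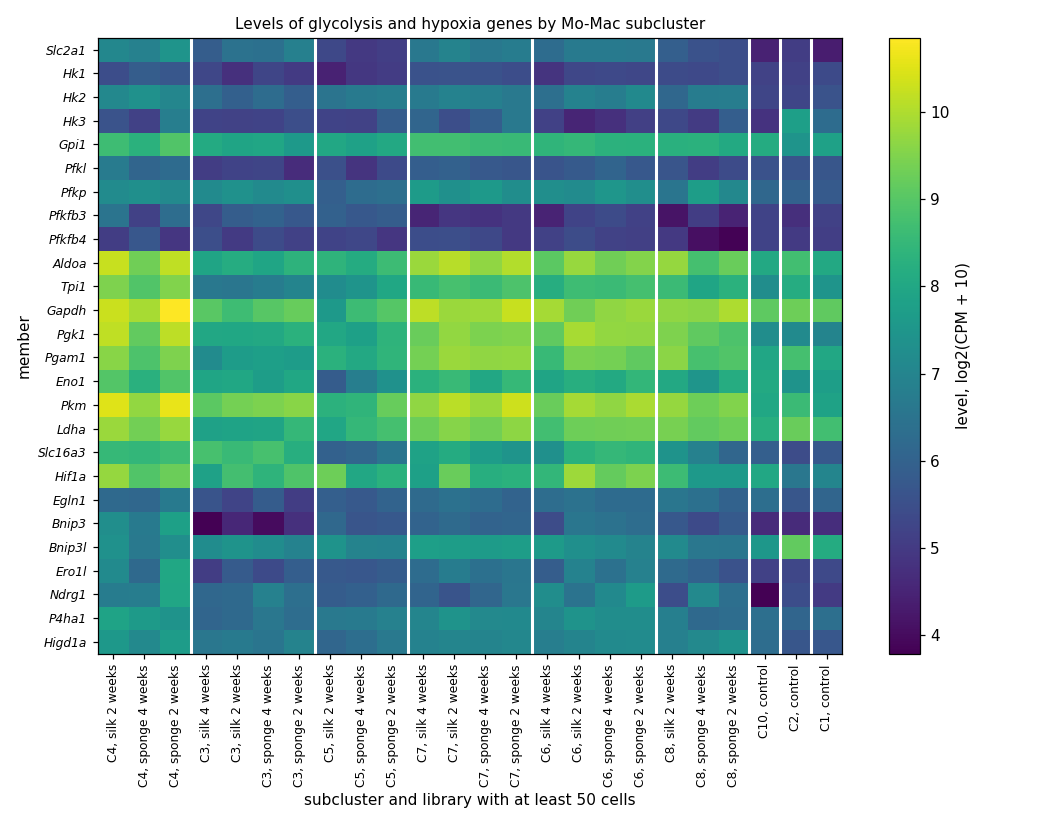
Heat map of log2(CPM + 10) of the members in Mo-Mac subclusters, 1 column for each subcluster and library with at least 50 cells. Columns of C3 and C5 are darker (lower) for Aldoa, Tpi1, Pgk1 and Pgam1 beside C4, and the control columns (C10, C2 and C1) are low in Slc2a1, Pgk1 and Slc16a3.

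Silk was set against sponge at matched weeks to ask whether the material changes the module. In Mo-Mac cells no member was called in the same direction at both weeks (background 0.0407% higher and 0.285% lower). At 2 weeks 2 of 27 members fell in silk, where 3.32% of all genes did, and none rose (1.26%). Ndrg1 fell to 45.5 CPM in 2-week silk, against 152 in 2-week sponge, a ratio of 0.299 (0.284 to 0.315). Hk3 fell to 32.35 CPM in 2-week silk, against 77.9 in 2-week sponge, a ratio of 0.415 (0.39 to 0.443). At 4 weeks none of 25 was called (background 0.265% higher and 0.489% lower). There Ndrg1 stood at 67.3 CPM in 4-week silk, against 75.6 in 4-week sponge, and Hk3 at 51.6 CPM in 4-week silk, against 40.6 in 4-week sponge. Whether the differences at the 2 weeks are unequal was not tested.

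The lower Ndrg1 of 2-week silk was also seen inside subclusters. In C4 it stood at 97.4 CPM in 2-week silk, against 243 in 2-week sponge (log2 -1.23, background 1.31%), and in C6 at 79.9 CPM in 2-week silk, against 194 in 2-week sponge (log2 -1.18, background 1.23%). Hk3 fell in C4, to 38.1 CPM in 2-week silk, against 102 in 2-week sponge, and in C7, to 34.9 CPM in 2-week silk, against 90.7 in 2-week sponge (background 0.957%). In C5 of silk at 2 weeks Eno1 and Gapdh fell, to 47.8 CPM in 2-week silk, against 154 in 2-week sponge, and to 185 CPM in 2-week silk, against 499 in 2-week sponge (background 1.98%), and Slc16a1 rose by 1.01 log2 (background 1.84%). In the cycling subcluster C8 Slc16a3 rose to 162 CPM in 2-week silk, against 60.01 in 2-week sponge, and Hif1a to 389 CPM in 2-week silk, against 186 in 2-week sponge (background 2.93%). C8 held 61 cells in 2-week silk and 133 in 2-week sponge. Markers of mesothelial cells or keratinocytes summed to 574 CPM in C8 of 2-week silk, against 1.78 in 2-week sponge, and their part was not tested. At 4 weeks Slc16a3 fell in C6 of silk, to 152 CPM in 4-week silk, against 347.5 in 4-week sponge, and Bnip3 to 33.3 CPM in 4-week silk, against 78.03 in 4-week sponge (background 1.76%). Ndrg1 in C7 narrowly missed the call, at 39.2 CPM in 2-week silk, against 85.9 in 2-week sponge. Whether the subclusters differ in these ratios was not tested. C3 had none called in any contrast (backgrounds 0.19% to 1.6%).

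Between 4 and 2 weeks no member was called in Mo-Mac cells of both materials (background 0.0814% higher and 0.346% lower). Of 26 members 19 were lower at 4 weeks in both materials and 2 were higher, counts that were not made over all genes. The median over all 36 members was -0.23 log2 in sponge and -0.25 in silk, and over all genes that entered 0.06 and -0.05. Hif1a alone passed the call in 1 material, as it fell in silk, to 228 CPM in 4-week silk, against 614 in 2-week silk, a ratio of 0.371 (0.352 to 0.391), where 0.63% of all genes fell and 0.59% rose. In sponge no member was called (1.39% higher and 2.87% lower), and Hif1a stood at 328 CPM in 4-week sponge, against 462 in 2-week sponge. Of the other hypoxia response genes 1 of 19 fell at 4 weeks in both materials, Hmox1, by at least 1.05 log2.

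The fall of Hif1a in silk was present in both common subclusters. In C6 it stood at 346 CPM in 4-week silk, against 883 in 2-week silk (log2 -1.33), and in C7 at 212 CPM in 4-week silk, against 589 in 2-week silk (log2 -1.43). In C6 of silk Bnip3 and Ero1l fell as well, the second to 49.2 CPM in 4-week silk, against 110.4 in 2-week silk (background 1.94% in C6 and 0.581% in C7). In sponge, C4 held 6 of 29 members that were lower at 4 weeks (background 2.64%). They were Ero1l (64.45 CPM in 4-week sponge, against 246 in 2-week sponge), Hk3 (25.8 CPM in 4-week sponge, against 102 in 2-week sponge), Ndrg1 (99.9 CPM in 4-week sponge, against 243 in 2-week sponge), Bnip3 (93.45 CPM in 4-week sponge, against 214 in 2-week sponge), Pfkfb3 and Egln3. The 71 C4 cells of 4-week sponge carried 8 UMIs of Hk3 and 3 of Egln3, and these values have wide counting error.

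The same members were set side by side in Mo-Mac cells, neutrophils and fibroblasts, where values are compared for 1 gene at a time because 3' counts do not put different genes on 1 scale. The lactate exporter and the glucose transporters had different orders over the classes. Slc16a3 stood at 2156 CPM in 4-week silk, 1299 in 2-week silk, 1313 in 4-week sponge and 943 in 2-week sponge in neutrophils, against 221 to 276 CPM in granuloma Mo-Mac cells and 42.7 to 94.9 CPM in fibroblasts. Slc16a1 had another order, at 40.1 CPM in 4-week silk, 102.5 in 2-week silk, 48.8 in 4-week sponge and 59.01 in 2-week sponge in fibroblasts, against 18.8 to 23.0 CPM in Mo-Mac cells and 2.34 to 12.04 CPM in neutrophils. Slc2a3 was highest in neutrophils, at 409.5 CPM in 4-week silk, 548 in 2-week silk, 329.5 in 4-week sponge and 335 in 2-week sponge, against at most 3.15 CPM in granuloma Mo-Mac cells and 5.20 CPM in fibroblasts. It was not confined to neutrophils. Outside these classes, NK and T cells of the granulomas held 35.2 to 52.8 CPM. Cells deposited as myocytes held 31.0 CPM in 4-week sponge and 34.9 in 2-week sponge.

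Hexokinase transcripts were also divided between the classes. Hk2 was higher in fibroblasts, at 188 CPM in 4-week silk, 184 in 2-week silk, 295 in 4-week sponge and 245 in 2-week sponge, against 86.3 to 108 CPM in granuloma Mo-Mac cells and 36.1 to 89.9 CPM in neutrophils. Hk3 stood at 169 CPM in 4-week silk, 92.04 in 2-week silk, 107.5 in 4-week sponge and 107 in 2-week sponge in neutrophils, against 1.13 to 3.23 CPM in fibroblasts. Of the 3 classes, Ndrg1 was highest in fibroblasts, at 367 CPM in 4-week silk, 281 in 2-week silk, 409.7 in 4-week sponge and 290.2 in 2-week sponge. Endothelial cells, outside these classes, stood higher in each granuloma, at 566.5, 298, 453 and 356.5 CPM in that order. Hif1a had overlapping levels in all 3 classes, with 231 to 664 CPM in fibroblasts, 231 to 498 CPM in neutrophils and 228 to 614 CPM in granuloma Mo-Mac cells. In each class the highest Hif1a level was that of 2-week silk. Ankrd37 stood at 25.7 to 96.4 CPM in neutrophils and was higher there than in Mo-Mac cells and fibroblasts in 3 granulomas. In 4-week sponge its neutrophil level of 25.7 CPM rests on 11 UMIs (12.8 to 46.0). That interval holds the Mo-Mac level of 16.3 CPM, and these cannot be put in order. Egln3 stood at 29.3 to 73.1 CPM in neutrophils and was likewise higher there in 3 granulomas. In 4-week silk its neutrophil level of 36.1 CPM rests on 3 UMIs (7.45 to 105.6), against 35.9 CPM in fibroblasts, and these cannot be put in order.

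**Figure D3:**
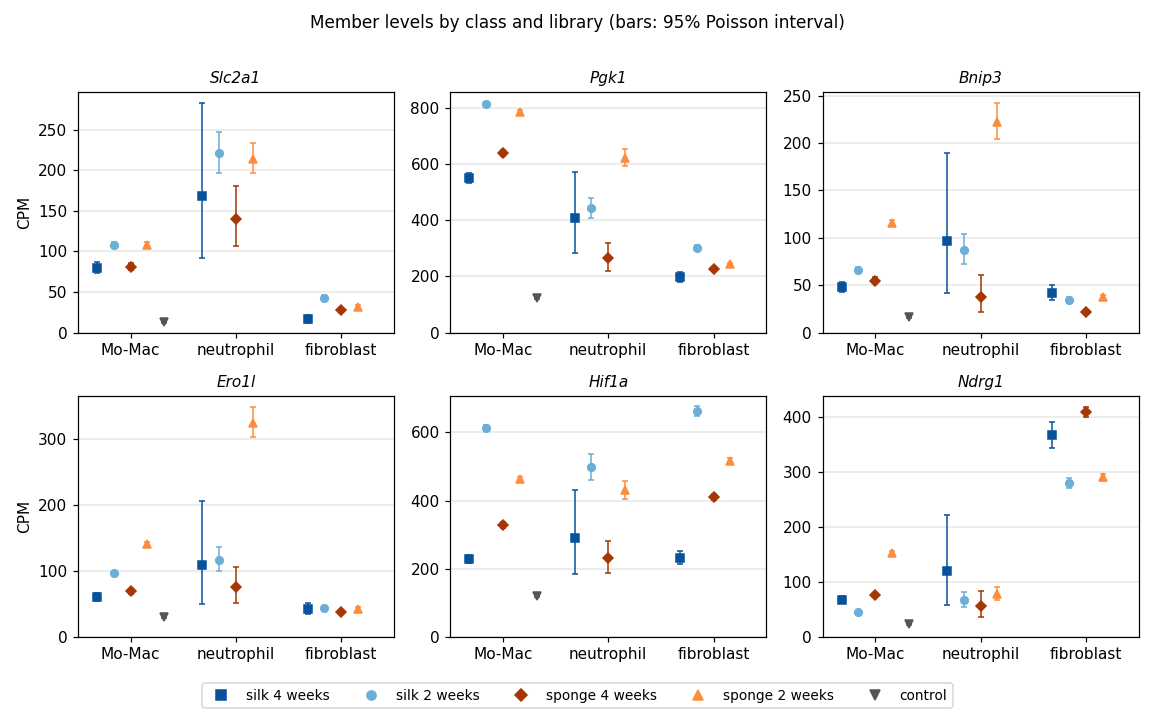
Levels of Slc2a1, Pgk1, Bnip3, Ero1l, Hif1a and Ndrg1 in CPM in Mo-Mac cells, neutrophils and fibroblasts of each library, with exact Poisson 95% intervals that cover counting error. Among the granulomas Slc2a1 is lowest in fibroblasts and Ndrg1 highest there, and Bnip3 and Ero1l reach their highest levels in neutrophils of 2-week sponge, at 223 and 325 CPM.

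In neutrophils no member was called at both weeks between silk and sponge (background 0.437% higher and 0.757% lower) or in both materials between 4 and 2 weeks (0.96% and 2.85%). Single contrasts gave some calls. In 2-week silk 4 of 30 members were lower than in 2-week sponge, where 2.52% of all genes were. Ero1l fell to 117 CPM in 2-week silk, against 325 in 2-week sponge, a ratio of 0.36 (0.302 to 0.426). Bnip3 fell to 87.05 CPM in 2-week silk, against 223 in 2-week sponge, a ratio of 0.391 (0.319 to 0.477). Pfkfb3 fell to 50.7 CPM in 2-week silk, against 128.5 in 2-week sponge, and Egln3 to 29.25 CPM in 2-week silk, against 73.1 in 2-week sponge. No member rose (background 2.77%).

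In 4-week sponge 6 of 30 members were lower than in 2-week sponge, where 6.18% of all genes were, and none was higher (6.89%). Bnip3 fell to 37.4 CPM in 4-week sponge, against 223 in 2-week sponge, a ratio of 0.168 (0.0953 to 0.275). Ero1l fell to 74.8 CPM in 4-week sponge, against 325 in 2-week sponge, a ratio of 0.23 (0.156 to 0.327). Pgk1 fell to 266 CPM in 4-week sponge, against 623 in 2-week sponge, a ratio of 0.428 (0.35 to 0.518). The other 3 were Ankrd37, Tpi1 and Eno1. These contrasts share the 2-week sponge library, whose neutrophils were the highest in Bnip3, Ero1l, Pgk1 and Egln3. The median over all 36 members was -0.60 log2 at 4 against 2 weeks in sponge and -0.10 in silk, and over all genes that entered 0.11 and -0.02. In silk only 69 neutrophils represent 4 weeks, and 2 members were called there, P4ha1 lower at 24.1 CPM in 4-week silk, against 78.5 in 2-week silk, and Ankrd37 higher at 96.35 CPM in 4-week silk, against 37.8 in 2-week silk (backgrounds 13.8% and 4.06%). Between silk and sponge at 4 weeks 16 members entered and none was called (3.32% higher and 8.89% lower). In 4-week silk neutrophils Ankrd37 rests on 8 UMIs and P4ha1 on 2, and the interval of P4ha1, 2.92 to 87.0 CPM, holds the level of 2-week silk. Of 16 other hypoxia response genes Hilpda, a lipid droplet protein and HIF target, fell at 4 weeks in both materials (by at least 1.47 log2), while 3 of 27 stress and immediate early genes rose (Fosb, Jund and Btg2).

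The neutrophil libraries differ in their subclusters, and these differ in the module. N2 made up 19.3% of neutrophils in 2-week silk, 27.3% in 4-week sponge and 55.0% in 2-week sponge, and N1 73.5%, 69.4% and 34.9%. With each subcluster given equal weight, the 4 members lower in 2-week silk became 1 (Pfkfb3), and the 6 lower in 4-week sponge became 2 (Bnip3 and Ero1l). Subcluster N3 (7.25% in 2-week silk and 10.2% in 2-week sponge) carried macrophage markers at 16130 and 18570 CPM, against 1982 to 3644 in N1 and 2128 to 2550 in N2. Without N3 the count lower in 2-week silk was 7.

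N1 was led by the neutrophil genes S100a9 and Retnlg and N2 by S100a8, Il1f9, Ccl3 and Hcar2. In the 3 libraries with enough cells, 9 of 29 members were at least 2-fold higher in N2 than in N1 (5.47% of all genes) and 1 was lower (3.87%), a pair chosen after its values were seen. Bnip3 stood at 244 CPM in 2-week silk, 85.8 in 4-week sponge and 378 in 2-week sponge in N2, against 39.2, 11.1 and 34.3 in N1 of the same libraries, ratios of 6.23-fold (3.96 to 9.96), 7.7-fold (2.03 to 43.0) and 11-fold (7.17 to 17.8). Ero1l stood at 244 CPM in 2-week silk, 164 in 4-week sponge and 532 in 2-week sponge in N2, against 98.6, 33.4 and 96.6 in N1 of the same libraries, ratios of 2.47-fold (1.73 to 3.52), 4.9-fold (2.15 to 12.2) and 5.5-fold (4.23 to 7.27). Both were higher in N2 of every library, with intervals that are wide where N1 held few UMIs. Pgk1 stood at 862 CPM in 2-week silk, 468 in 4-week sponge and 744 in 2-week sponge in N2, against 193, 145 and 273 in N1 of the same libraries, ratios of 4.46-fold (3.6 to 5.53), 3.23-fold (2.12 to 4.97) and 2.73-fold (2.31 to 3.23). Ankrd37 stood at 109 CPM in 2-week silk, 70.2 in 4-week sponge and 122.5 in 2-week sponge in N2, against 20.2, 7.425 and 38.97 in N1 of the same libraries. The other members higher in N2 were Hk1, Aldoa, Tpi1, Pgam1 and Ldha.

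The glucose transporter Slc2a3 took the opposite course. It stood at 177 CPM in 2-week silk, 171.5 in 4-week sponge and 216 in 2-week sponge in N2, against 879.7, 434 and 736 in N1 of the same libraries, ratios of 0.201-fold (0.143 to 0.274), 0.395-fold (0.238 to 0.626) and 0.294-fold (0.25 to 0.345). The lactate exporter Slc16a3 stood at 921 CPM in 2-week silk, 1037 in 4-week sponge and 817.5 in 2-week sponge in N2, against 1753, 1518 and 1587 in N1 of the same libraries, which was below 2-fold in each. The other glucose transporter, Slc2a1, had ratios of 1.0-fold (0.739 to 1.35), 1.71-fold (0.977 to 2.96) and 1.33-fold (1.08 to 1.64). Slc2a3 was no longer called when each cell was given equal weight. The median log2 ratio of all genes that entered was -0.14, -0.05 and 0.10 in these libraries.

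Of the other hypoxia response genes 4 of 16 were higher in N2 than in N1, namely Mif (by at least 1.90 log2), Hmox1 (1.78), Plin2 (1.30) and Kdm3a (1.01), and Trf was lower (-2.01). Of the other glycolysis and pentose phosphate genes 2 of 10 were higher, the glycogen branching enzyme Gbe1 (1.96) and Pgd (1.05). Of 27 stress and immediate early genes 1 was higher, Jun (1.06), and 3 were lower, Fosl2 (-1.55), Btg2 (-1.14) and Hspa1a (-1.08). N2 of 2-week silk also held erythroid transcripts at 3907 CPM, and their part was not tested.

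Within N2 some members were lower than in 2-week sponge, but so were many of all genes, and these counts are not read as particular to the module. In 4-week sponge 5 of 27 members were lower than in 2-week sponge (background 9.52%), led by Bnip3 at 85.8 CPM in 4-week sponge, against 378 in 2-week sponge, and Ero1l at 164 CPM in 4-week sponge, against 532 in 2-week sponge. In 2-week silk 4 of 28 were lower than in 2-week sponge (background 9.7%), among them Pfkfb3 at 42.1 CPM in 2-week silk, against 179 in 2-week sponge, and Hk2 at 50.5 CPM in 2-week silk, against 134 in 2-week sponge. Within N1 Hif1a stood at 208 CPM in 4-week sponge, against 533 in 2-week sponge, and it and Ero1l were the 2 members lower at 4 weeks in sponge (background 3.45%). N1 had no member called between silk and sponge at 2 weeks (5.2% higher and 1.16% lower).

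**Figure D4:**
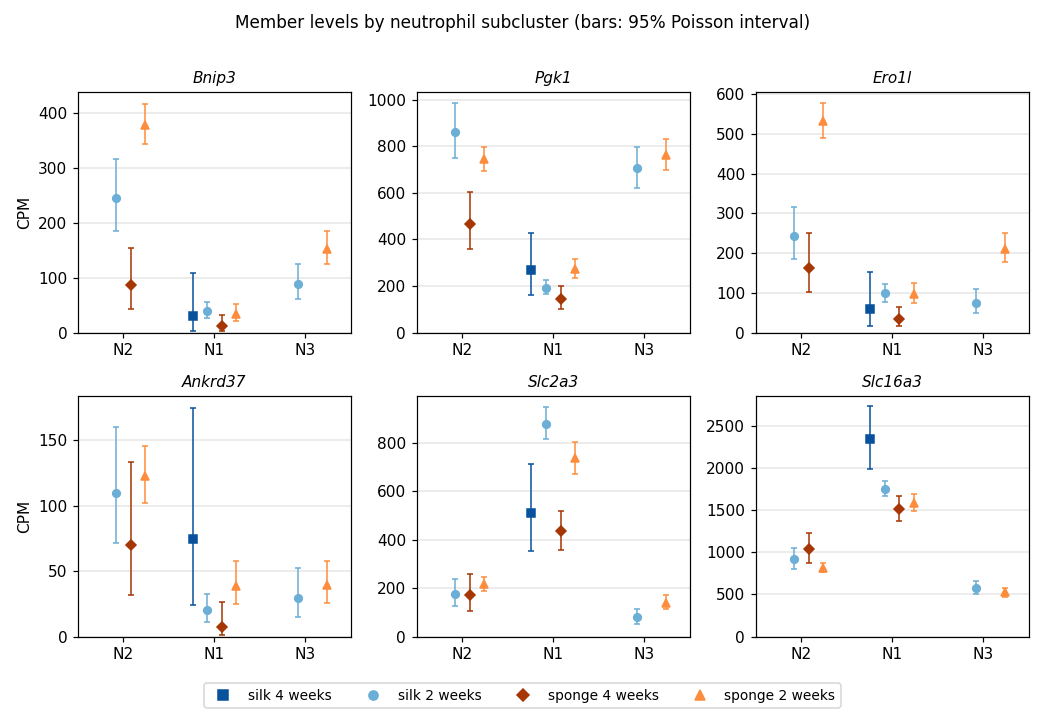
Levels in CPM of Bnip3, Pgk1, Ero1l, Ankrd37, Slc2a3 and Slc16a3 in neutrophil subclusters N2, N1 and N3 by library, with exact Poisson 95% intervals that cover counting error. Bnip3, Pgk1, Ero1l and Ankrd37 are higher in N2 than in N1 of each library with both, and Slc2a3 and Slc16a3 are higher in N1.

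In fibroblasts, which build the collagen capsule around an implant, no member was called at both weeks between silk and sponge (0.0756% of all genes in each direction) or in both materials between 4 and 2 weeks (0.34% higher and 0.397% lower). In silk 3 of 25 members fell at 4 weeks, where 2.74% of all genes fell. Hif1a fell to 231 CPM in 4-week silk, against 664 in 2-week silk, a ratio of 0.348 (0.32 to 0.378). Slc16a1 fell to 40.1 CPM in 4-week silk, against 102.5 in 2-week silk, a ratio of 0.391 (0.318 to 0.477). Slc2a1 fell to 16.25 CPM in 4-week silk, against 42.7 in 2-week silk, a ratio of 0.38 (0.272 to 0.519). None of the 25 rose (background 3.89%). Egln3 and Pfkm were under the filter and could not be called between whole classes. Egln3 stood at 35.9 CPM in 4-week silk, against 5.73 in 2-week silk and 2.80 in 4-week sponge. Pfkm stood at 34.8 CPM in 4-week silk, against 12.7 in 2-week silk and 14.0 in 4-week sponge. Subcluster F1, described below, made up 59.7% of fibroblasts in 4-week silk and 13.2% in 2-week silk. Slc2a1 stood at 10.9 CPM in 4-week silk, against 15.2 in 2-week silk, within F1, and at 21.8 against 47.8 within F2. It was called in neither, whereas Slc16a1 and Hif1a were called within F2 but not F1. The part of the subcluster shares in these falls was not tested. The single contrasts of silk with sponge at 2 weeks (1.1% higher and 1.65% lower) and at 4 weeks (1.57% and 0.849%), and of 4 with 2 weeks in sponge (0.66% and 0.757%), had no member called. Of the 25 members 17 were lower at 4 weeks in both materials, a count that was not made over all genes. In sponge Hif1a stood at 409.8 CPM in 4-week sponge, against 517 in 2-week sponge. The median over all 36 members was -0.16 log2 in silk and -0.14 in sponge, and over all genes that entered -0.10 and 0.03.

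The remaining members had no called difference between whole fibroblast classes. Pgk1 stood at 196.5 CPM in 4-week silk, 301 in 2-week silk, 226 in 4-week sponge and 243 in 2-week sponge, and Pkm at 390.0 CPM in 4-week silk, 555.5 in 2-week silk, 404 in 4-week sponge and 465 in 2-week sponge. P4ha1, needed for collagen folding, stood at 211 CPM in 4-week silk, 237.5 in 2-week silk, 171 in 4-week sponge and 212 in 2-week sponge. Bnip3 stood at 41.95 CPM in 4-week silk, 34.1 in 2-week silk, 22.2 in 4-week sponge and 37.5 in 2-week sponge, and Ero1l at 42.3 CPM in 4-week silk, 43.1 in 2-week silk, 37.55 in 4-week sponge and 42.8 in 2-week sponge. The 2-week sponge library, highest in Bnip3 and Ero1l of Mo-Mac cells and neutrophils, was not the highest in either gene here. Higd1a stood at 117 CPM in 4-week silk, 162 in 2-week silk, 119.8 in 4-week sponge and 149.7 in 2-week sponge.

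The largest single difference among fibroblasts lay in subcluster F2, led by Cxcl5, Col6a3 and Crabp2. In 4-week silk its 58 cells held Egln3 at 61.1 CPM, against 5.96 in 2-week silk, 2.97 in 4-week sponge and 6.99 in 2-week sponge. The ratio to 4-week sponge was 20.6-fold (12.7 to 34.6). The 84 UMIs came from 29 of the 58 cells, 13 of them from 1 cell. An Egln3 UMI was found in 1 of 126 F1 cells of the same library and in 29 of 457, 14 of 374 and 26 of 314 F2 cells of 2-week silk, 4-week sponge and 2-week sponge. The F2 cells of 4-week silk were deep, with a median of 20751.5 UMIs, against 8055 in F1 of that library. Pfkm, the muscle-type phosphofructokinase, was higher in the same cells, at 53.1 CPM. Slc16a1 and Hif1a fell in F2 of silk, to 19.6 CPM in 4-week silk, against 115 in 2-week silk, and to 199 CPM in 4-week silk, against 698.5 in 2-week silk (backgrounds 3.87% higher and 3.11% lower).

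Against 4-week sponge, F2 of 4-week silk had 3 of 27 members higher (Egln3, Pfkm and Bnip3, background 2.32%) and 2 lower. The lower ones were Hk2, at 101 CPM in 4-week silk, against 221 in 4-week sponge, and Ddit4, at 28.4 CPM in 4-week silk, against 69.1 in 4-week sponge (background 1.02%). In sponge Bnip3 fell in F2, to 16.3 CPM in 4-week sponge, against 52.9 in 2-week sponge, and Slc16a1 to 41.98 CPM in 4-week sponge, against 111.5 in 2-week sponge (background 1.9%). In the cycling subcluster F3 Bnip3 fell to 21.8 CPM in 2-week silk, against 59.01 in 2-week sponge (background 1.15%), and to 17.5 CPM in 4-week sponge, against 59.01 in 2-week sponge (background 0.863%). F1 and F4 had no member called in any contrast between libraries (backgrounds 0.506% to 3.66%). All of these Bnip3 levels were low.

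F1, led by Clec3b, Sfrp4 and Mmp3, was the most frequent fibroblast subcluster except in 2-week silk, at 59.7%, 13.2%, 55.5% and 63.8%, while F2 took 27.5%, 57.3%, 25% and 14.8% (4-week silk, 2-week silk, 4-week sponge, 2-week sponge). Against the rest, F1 had no member called in all 4 libraries (0.872% of all genes lower) and 19 of 25 members below 0 in each. F2 had none called either (background 0.0941%), with 16 above 0 and none below in each. The share of all genes with the same sign in each library was not counted, so these counts are not read as particular to the module. Pgk1 stood at 103 CPM in 4-week silk, 122 in 2-week silk, 145 in 4-week sponge and 178 in 2-week sponge in F1, against 274 in 4-week silk, 299.9 in 2-week silk, 272 in 4-week sponge and 313 in 2-week sponge in F2. Hk2 had the other order in 3 libraries, at 292 CPM in 4-week silk, 171 in 2-week silk, 372.5 in 4-week sponge and 279.8 in 2-week sponge in F1, against 101 in 4-week silk, 195.5 in 2-week silk, 221 in 4-week sponge and 190.1 in 2-week sponge in F2. The 2-week silk fibroblasts, with the most F2 cells, were the exception.

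**Figure D5:**
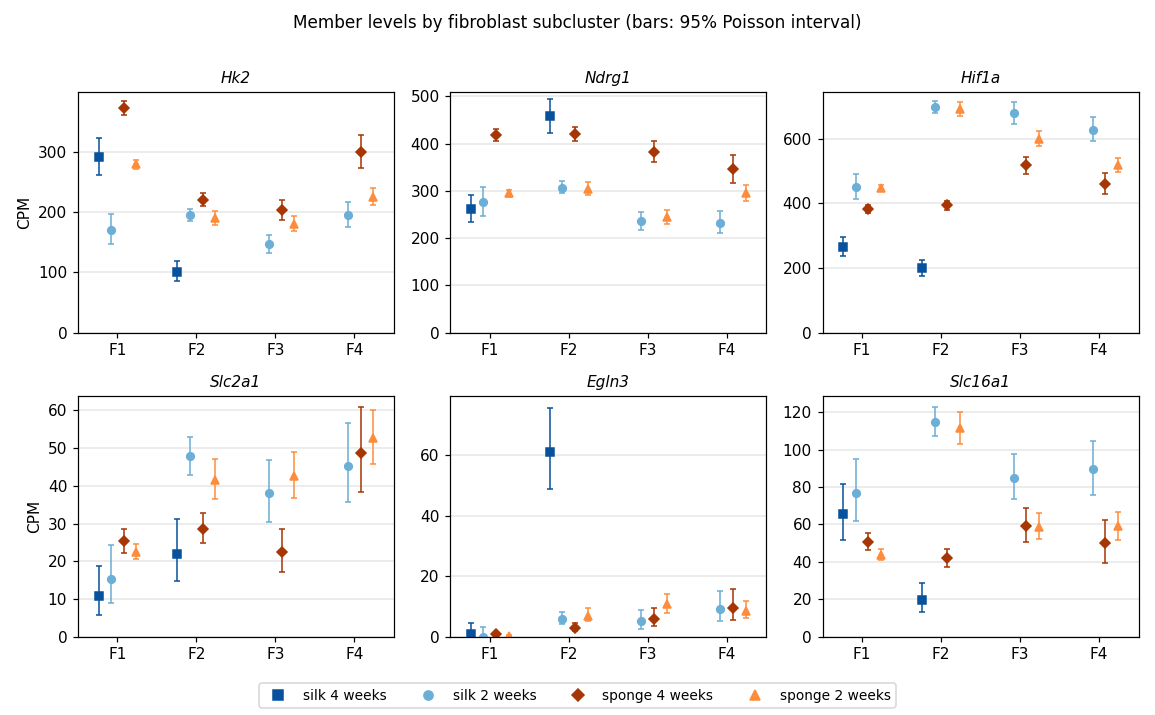
Levels in CPM of Hk2, Ndrg1, Hif1a, Slc2a1, Egln3 and Slc16a1 in fibroblast subclusters F1 to F4 by library, with exact Poisson 95% intervals that cover counting error. Egln3 stands at 61.1 CPM in F2 of 4-week silk, against 2.97 to 6.99 CPM in F2 of the other libraries, and Hif1a is lower in 4-week silk than in the other libraries in F1 and F2.

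Of the 36 members, 26 passed the filter on low values in Mo-Mac cells of granuloma and control, 30 in neutrophils and 25 in fibroblasts. Aldoc, Eno2, Ldhb, Pdk1 and Pfkm passed in none of these, although Pdk1 entered the single contrasts of 2-week silk with 2-week sponge and of 4-week with 2-week silk in Mo-Mac cells. Aldoc, the brain-type aldolase, was low but not level in Mo-Mac cells, at 14.35 CPM in 4-week silk, 13.3 in 2-week silk, 13.5 in 4-week sponge and 11.4 in 2-week sponge, against 1.91 in the control. Eno2, the neuronal enolase, stood at 4.1 CPM in 4-week silk, 3.56 in 2-week silk, 9.17 in 4-week sponge and 4.24 in 2-week sponge, against 3.98 in the control, and Pfkm at 3.63 CPM in 4-week silk, 1.55 in 2-week silk, 4.08 in 4-week sponge and 2.18 in 2-week sponge, against 1.92 in the control. Slc2a3, Slc16a1, Egln3, Ankrd37 and Ddit4 failed in Mo-Mac cells and Slc2a3, Hk3, Pfkfb3, Pfkfb4, Egln3 and Ankrd37 in fibroblasts, and Slc16a1 was the further one in neutrophils.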

How the data were processed

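Raw UMI counts of 21617 genes in 41191 cells, the mitochondrial percent of UMIs for each cell and the names of libraries, classes and subclusters were used as deposited by the authors. Cell Ranger 3.0.0, Seurat 3.0 and build mm10 are named per the submitters' processing notes. The sources used here do not name the cell filters, and the deposited cells had at least 201 genes and at most 24.98% mitochondrial UMIs. Subclusters C9, BP and KC, whose leading genes are those of other cells, and cells named low quality were left out of the classes.

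Counts were summed by library and class or subcluster with at least 50 cells and scaled to 1000000 (CPM). Levels carry exact Poisson and ratios exact conditional binomial 95% intervals, which cover counting error only. A gene entered a comparison with a mean of 25 CPM and 50 UMIs, and was called at 2-fold with 10 CPM added to both sides in every contrast. Each group has 1 library, so no p-value was computed. The alternatives were offsets of 1 and 50 CPM, a 1.5-fold call, no filter, scaling by the median of all genes, equal weights for cells or subclusters, at most 10% mitochondrial UMIs, whole deposited classes, omission of subclusters, of libraries and of the 5% of cells with the highest doublet scores. The doublet caller of scanpy marked 0.32% (4-week silk), 0% (2-week silk), 1.13% (4-week sponge), 0.016% (2-week sponge) and 1.449% (control) of cells, which for 3 libraries is too few to have worked, and no cell was removed by it in the values reported.

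The members and gene lists were chosen with earlier results of these data known. Every member could be named. Values in every library were given for members past 2-fold in every contrast and for fixed genes of each role, and up to 4 genes in each direction for other lists. Values of Gapdh, Pgk1, Ldha, Eno1, Aldoa and Tpi1 may share reads with near-identical pseudogenes, and the annotation holds 2 Aldoa entries. Positions are from GENCODE M21 on GRCm38 (mm10) and promoters from RefSeq on GRCm38.p6. Python 3.11.15, numpy 2.4.6, scipy 1.17.1, pandas 2.3.3, scanpy 1.11.5 and matplotlib 3.10.9 were used.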

Additional observations from a re-analysis of the deposited data

Results flagged for a closer look

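The results in this section were picked out because a pair of contrasts pointed in opposite directions or because a signal appeared in cells outside the compared classes. In none of them was the difference between contrasts tested, each group has 1 library, and the 4-week silk neutrophils number 69, with 8 UMIs each of Bnip3 and Ankrd37, 7 of Pfkfb3, 6 of Higd1a and 21 of Tpi1.

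In neutrophils, silk lay below sponge at 2 weeks and above it at 4 weeks by at least 1.5-fold each in 4 of 30 members, where 0.96% of all genes did. The flagging took opposite signs in either order, which 3.17% of all genes had. Bnip3 had log2 ratios of -1.26 at 2 weeks (87.1 CPM in silk, against 223 in sponge) and 1.17 at 4 weeks (96.4 against 37.4). Tpi1 had -0.97 (173 against 349.8) and 0.66 (253 against 157), Ankrd37 -0.86 (37.8 against 76.9) and 1.57 (96.4 against 25.7), and Higd1a -0.70 (56.4 against 97.8) and 0.60 (72.3 against 44.4). The interval of Higd1a in 4-week silk, 26.5 to 157.3 CPM, holds the value of 4-week sponge. N1 held 59 of the 69 neutrophils of 4-week silk, but 4 of their UMIs of Tpi1 and 2 of Bnip3. Within N1 Tpi1 was not higher in 4-week silk, at 59.95 CPM, against 66.8 in 4-week sponge. Bnip3 (29.97 against 11.1), Ankrd37 (74.9 against 7.43) and Higd1a (74.9 against 37.1) were higher there, each on 5 UMIs or fewer in 4-week silk. Between 4 and 2 weeks, 2 of 30 members had opposite signs, where 3.9% of all genes had. Ankrd37 had -1.28 in sponge (25.7 CPM at 4 weeks, against 76.9 at 2 weeks) and 1.15 in silk (96.4 against 37.8). Pfkfb3 had -0.75 in sponge (72.4 against 128.5) and 0.64 in silk (84.3 against 50.7).

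In fibroblasts the mTOR inhibitor gene Ddit4 was the 1 of 25 members with opposite signs. Of all genes 1.36% had them between silk and sponge and 0.51% between 4 and 2 weeks. Silk against sponge gave 0.64 at 2 weeks (40.0 CPM in silk, against 22.1 in sponge) and -0.75 at 4 weeks (19.3 against 39.3). Between 4 and 2 weeks it gave 0.62 in sponge (39.3 CPM at 4 weeks, against 22.1 at 2 weeks) and -0.77 in silk (19.3 against 40.0). Within subclusters at 2 weeks, silk against sponge was 14.3 against 13.8 CPM in F1 and 44.1 against 42.9 in F2. In F3 it was 41.9 against 34.1 and in F4 36.6 against 19.8. At 4 weeks it was 9.22 against 15.0 in F1 and 28.4 against 69.1 in F2. F1 made up 13.2% of fibroblasts in 2-week silk and 63.8% in 2-week sponge. The part of subcluster shares in the class values was not tested.

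NK and T cells, which no comparison of the report uses, had 3 members at least 2-fold above the control in all 4 granulomas, where 3.92% of all genes were. The smallest log2 ratio was 1.0 for Pkm, 1.13 for Slc16a3 and 1.17 for Hif1a.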

How the results depend on the processing

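Of 380 alternative values of 33 counts, 343 lay within 1.5 times of the reported count and 37 moved further. None of 976 alternative values of 93 called ratios reversed, and 164 lay outside their counting interval. With 50 CPM added, the members higher in granuloma than control Mo-Mac cells numbered 5, those lower in C5 5, higher in C4 than C3 5, higher in N2 than N1 5 and than the rest 2. The same offset gave 1 neutrophil member lower in 2-week silk than 2-week sponge, 3 in 4-week than 2-week sponge, 1 fibroblast member lower in 4-week than 2-week silk and 1 other hypoxia gene higher than the control. A 1.5-fold call gave 16 members higher and 1 lower than the control, 1 lower at 4 weeks in Mo-Mac cells, and in neutrophils 2 lower in silk, 4 lower at 4 weeks, 11 lower in 2-week silk and 17 in 4-week sponge. It gave 6 in fibroblasts of 4-week silk, and above the control 2 further glycolysis, 7 other hypoxia (3 below) and 2 mitochondrial genes. With 1 CPM added, 1 neutrophil member was lower at 4 weeks, 5 fibroblast members were lower in 4-week silk and 2 other hypoxia genes lower than the control, the last also without a filter. Centring on the median of all genes gave 1 neutrophil member lower at 4 weeks and 7 lower in 2-week silk. Equal weight for each cell gave 1 neutrophil member lower at 4 weeks, 5 in fibroblasts of 4-week silk, 5 higher in C4 than C3 and 0 lower in N2 than N1. Without the highest doublet scores, 7 neutrophil members were lower in 2-week silk and 7 higher in N2 than the rest. Without N3, added after seeing the data, the count lower in 2-week silk was 7, and with equal subcluster weights 1, with 2 in 4-week sponge. The causes were not tested. Leaving out 1 granuloma library gave 10 to 11 members higher than the control and 0 to 0 lower, 4 to 6 other hypoxia genes and 12 to 15 stress genes higher, and 0 to 3 further glycolysis genes (3 without 2-week sponge). The median of all genes moved by over 0.1 log2 in neutrophils of 2-week silk against sponge (0.18), of 4-week against 2-week sponge (0.11), in fibroblasts of 2-week silk against sponge (0.12) and of 4-week against 2-week silk (-0.10). No paired analysis was possible because each group has 1 library. With 1 library per group, animal and preparation cannot be told apart from material, week or origin, and 12.04 CPM per UMI limits the 4-week silk neutrophils.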

Other observations

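NK and T cells also showed the pathway's exit and its regulator above the control. Hif1a stood at 307 CPM in 4-week silk, 529.8 in 2-week silk, 461 in 4-week sponge and 397 in 2-week sponge, against 130.5 in the control. Slc16a3, the lactate exporter, stood at 37.8 CPM in 4-week silk, 92.1 in 2-week silk, 52.3 in 4-week sponge and 52.8 in 2-week sponge, against 11.9 in the control, with 15 UMIs each in 4-week silk and the control. Pkm stood at 365 CPM in 4-week silk, 438 in 2-week silk, 413.5 in 4-week sponge and 613 in 2-week sponge, against 177 in the control. The 4 granulomas lay above the control in all 3 genes, with 153 to 462 NK and T cells in a granuloma library and 367 in the control. Egln3 stood at 45.3 CPM in 4-week silk, 18.4 in 2-week silk, 41.04 in 4-week sponge and 18.1 in 2-week sponge, against 1.58 in the control, the last from 2 UMIs. Bnip3 was highest in 2-week sponge here too, at 10.1 CPM in 4-week silk, 13.8 in 2-week silk, 11.3 in 4-week sponge and 57.6 in 2-week sponge, against 4.75 in the control.

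Endothelial cells, which line vessels, were lower in Hk2 than granuloma Mo-Mac cells and neutrophils. Their Hk2 stood at 0.905 CPM in 4-week silk (1 UMI), 12.5 in 2-week silk, 17.3 in 4-week sponge and 15.8 in 2-week sponge. Their Hk1 stood at 66.97 CPM in 4-week silk, 55.97 in 2-week silk, 60.1 in 4-week sponge and 61.5 in 2-week sponge. These Hk1 levels lay above granuloma Mo-Mac cells (34.4 to 36.3 CPM) but overlapped neutrophils. Neutrophil Hk1 stood at 36.1 CPM in 4-week silk (3 UMIs), 52.8 in 2-week silk, 72.4 in 4-week sponge and 59.6 in 2-week sponge. In endothelial cells the other members named here were as follows. Ndrg1 stood at 566.5 CPM in 4-week silk, 298 in 2-week silk, 453 in 4-week sponge and 356.5 in 2-week sponge, and Hif1a at 500.5 CPM in 4-week silk, 553 in 2-week silk, 335 in 4-week sponge and 435 in 2-week sponge. Pfkfb3 stood at 47.97 CPM in 4-week silk, 41.3 in 2-week silk, 62.6 in 4-week sponge and 71.9 in 2-week sponge. In cells deposited as myocytes Ddit4 stood at 91.9 CPM in 4-week sponge and 51.4 in 2-week sponge. B cells of the control (744 cells) held Ankrd37 at 34.8 CPM and Ndrg1 at 5.68 CPM. Compared with the control's Mo-Mac cells, at 16.1 and 22.96 CPM, the B cells were higher in Ankrd37 and lower in Ndrg1.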
